A study of Mus musculus with 4 samples.

Results

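The genes of DNA replication and S phase were followed through an RNA-seq comparison of mouse small intestinal organoids grown from fetal and from adult epithelium. The set holds 42 genes, chosen by name for their roles in copying DNA: the origin recognition and licensing factors, the replicative helicase and its activators, the replicative polymerases and primase, the sliding clamp and its loader, the factors that process and join Okazaki fragments, the enzymes of nucleotide supply and both E-type cyclins. All 42 were found among the 55416 gene identifiers of the tables, each as 1 identifier, and all 42 passed the filter on low counts that left 14271 genes for testing. Their estimated counts ran from 77 for Gins3 to 5207 for Rrm1 in a library.

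The adult group was 2 libraries of organoids grown from intestinal epithelial cells of C57BL/6 mice aged 4 to 8 weeks, and the fetal group 2 libraries of organoids from embryos of the same strain at stage E15.5. Organoids are hollow epithelial cultures embedded in a basement-membrane gel, and both groups grew in the commercial medium IntestiCult. The labels name no genetic change and no drug, and do not say whether the 2 libraries of a group came from different animals or cultures. The p-values therefore cover only how far the libraries of a group lie apart, a spread that may be technical.

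In dividing cells, replication origins are first marked by the origin recognition complex, on which Cdc6 and Cdt1 load the ring of MCM2 to MCM7 as an inactive helicase. At the start of S phase, kinases including cyclin E with its partner Cdk2 help turn that ring into a running helicase with Cdc45 and the GINS complex, and primase and the polymerases then copy the strands. Many of these genes are known to be transcribed together late in G1 by E2F factors, and in the intestine they mark the dividing cells of the crypt.

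Most of the replication genes were higher in fetal organoids, mostly by less than 2-fold. Of the 42, 30 rose (71.4%), 5 fell and 7 did not pass the test (edgeR quasi-likelihood F-test, Benjamini-Hochberg adjusted p under 0.05 over all genes, TMM scaling). Among all tested genes 33.9% rose and 32.7% fell, so the members' share of rises stood above that of the table. The members were chosen with earlier results of these data known, so this contrast is a description and not an independent test. The same shares of all genes apply to the TMM counts by role and list below. Their median log2 fold change, fetal over adult, was 0.35, against 0.01 for all genes. The 2 groups of libraries did not overlap for 40 members, 32 of them higher in fetal; of all genes 82.7% did not overlap and 41.9% did so with fetal higher. At least 1.5-fold higher were 12 members (28.6%), against 20.7% of all genes, and 0 members were at least 1.5-fold lower, against 19.4%. At least 2-fold changed was 1 member, against 25.9% of all genes, so the members held few of the larger changes.

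How libraries were put on 1 scale shifts these numbers, so the direction of each gene is given with its scaling. A sign can turn between scalings while the gene stays below the median of all genes. TMM, the scaling used for all CPM values here, sets the bulk of genes to no change. Plain library totals moved the median of all genes to 0.25. With totals, 36 members rose and 2 fell, where 48.8% of all genes rose and 20.9% fell, and the members' median of 0.59 stood 0.34 above that of all genes. On the per-length TPM scale (limma on log2(TPM + 1)) 39 rose and 0 fell, where 49.6% of all genes rose and 12.8% fell, and the members' median of 0.70 again stood 0.34 above that of all genes, whose median was 0.36. On that scale 0 members were lower at an unadjusted p under 0.05 either, while DESeq2 on the counts called 2 lower. The same 30 members rose under all 6 scalings tried, and 0 fell under all 6. The median of all genes was lowest under TMM (0.0059, against 0.0116 to 0.36), so the other scalings shift genes towards a rise. Keeping these 30 rises and losing falls is therefore no separate support for the rises. Transcripts of mitochondrial genes moved with the groups, at 17.6% and 17.5% of counts in the adult and 6.98% and 7.82% in the fetal libraries. With totals taken without them 31 members rose and 3 fell, where 5423 of the 14186 genes tested rose and 3984 fell. What part the mitochondrial share has in the results was not tested.

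**Figure D1:**
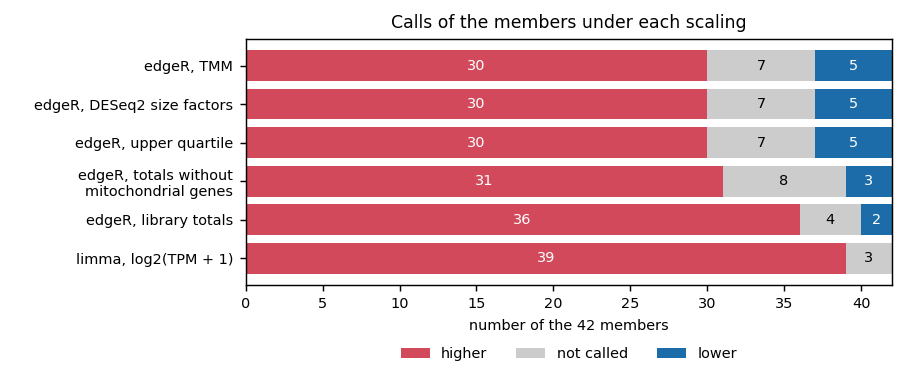
Number of the 42 replication genes called higher, not called or called lower in fetal organoids under each of 6 scalings (x axis, genes; calls at an adjusted p under 0.05). The count of rises runs from 30 to 39 and the count of falls from 5 to 0.

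Epithelial markers were abundant in all 4 libraries, with 9 of 9 detected and a summed level of 4523 and 4539 CPM in adult and 6993 and 7024 CPM in fetal organoids. Under TMM 4 of the 9 rose (Krt8, Krt18, Krt19 and Cdh1), 4 fell (Epcam, Cdx1, Cldn7 and Vil1; the signs for Cldn7 and Vil1 turn with library totals) and Cdx2 did not pass, with a list median of 0.01. The 10 markers of differentiated enterocytes, cells that have left the cycle, summed to 1632 and 1636 CPM in adult and 81.2 and 81.6 CPM in fetal organoids, and all 10 fell. The 10 mesenchymal markers summed to 5.07 and 5.81 CPM in adult and 69.0 and 67.0 CPM in fetal organoids, and 5 of them were at 0 in both adult libraries. Endothelial markers summed to at most 0.902 CPM in a library, with Cdh5 and Emcn at 0 in all of them, immune markers to 3.81 to 7.37 CPM with Cd3e at 0, and nerve and glial markers to 1.39 to 4.55 CPM. In bulk RNA, fewer cells of a type and less RNA per cell cannot be told apart, and the part of these cell types in the replication genes' results was not tested.

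**Figure D2:**
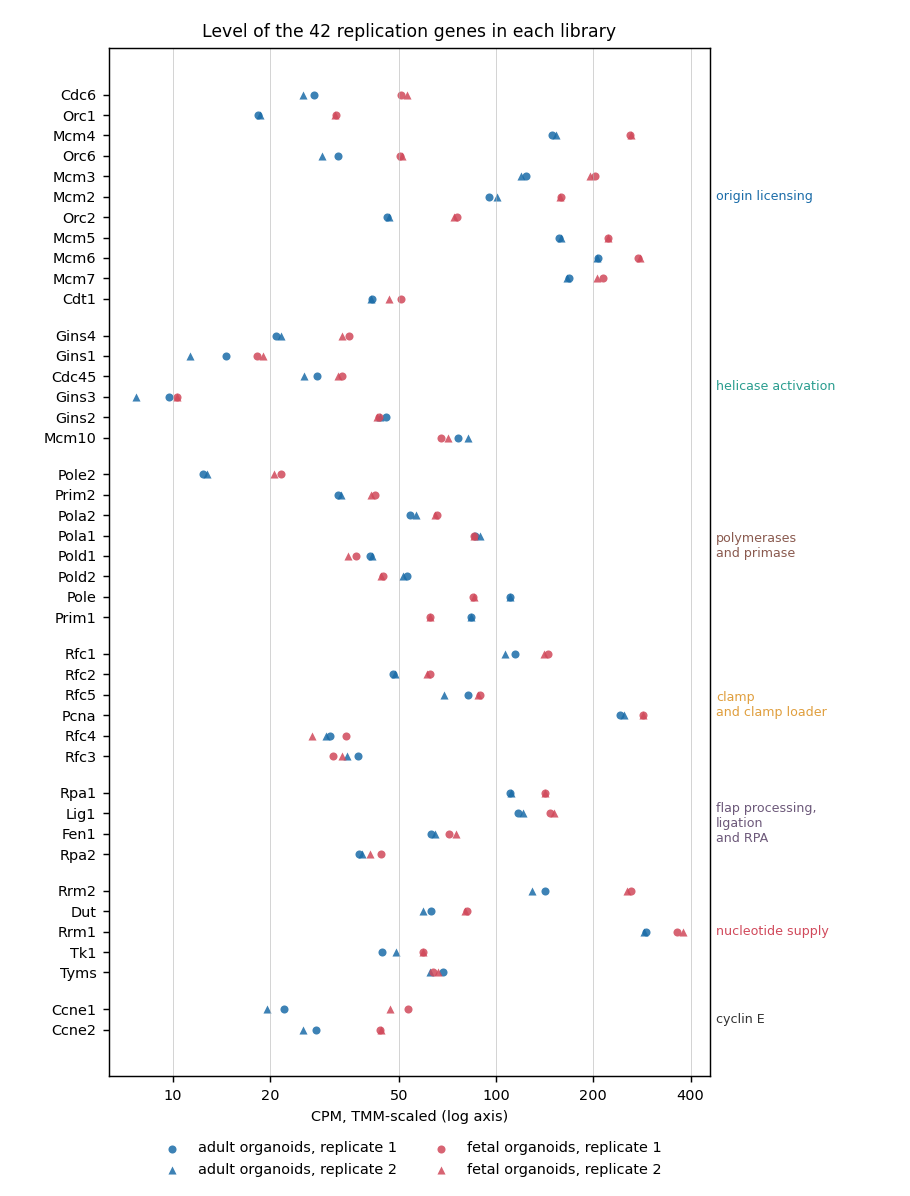
Level of each replication gene in each library, in CPM with TMM scaling on a log axis, grouped by role (circles, replicate 1; triangles, replicate 2; blue, adult; red, fetal). All 11 licensing genes have both fetal libraries to the right of both adult libraries, and Rfc4 and Tyms are the members whose groups overlap.

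Every gene of origin licensing rose, 11 of 11, with a median log2 fold change of 0.70 and folds from 1.19 to 1.97. Cdc6 (ENSMUSG00000017499), the ATPase that helps load the helicase ring, stood at 27.4 and 25.4 CPM in adult and 51.0 and 53.2 CPM in fetal organoids. Both fetal values lay well above both adult values, means of 52.1 ± 1.56 and 26.4 ± 1.43 CPM (SD, n = 2), and the log2 fold change was 0.98 ± 0.07 (SE, adjusted p = 8.41e-08). Orc1, the largest subunit of the origin recognition complex, stood at 18.4 and 18.5 CPM in adult and 32.1 and 31.8 CPM in fetal organoids (0.79 ± 0.08, adjusted p = 2e-06). Mcm4 (ENSMUSG00000022673), a subunit of the helicase ring, stood at 149 and 153 CPM in adult and 259.6 and 262 CPM in fetal organoids (0.79 ± 0.03, adjusted p = 8.28e-10). For these 3 genes the gap between the groups was many times the gap between the libraries of a group.

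The other ring and origin genes rose less or equally. Orc6 and Orc2, further subunits of the origin complex, changed by 0.72 ± 0.07 and 0.70 ± 0.06 on the log2 scale. Mcm3 and Mcm2 changed by 0.71 ± 0.04 and 0.70 ± 0.04, and Mcm5, Mcm6 and Mcm7 by 0.49 ± 0.03, 0.43 ± 0.03 and 0.33 ± 0.04. Cdt1, the loader that licenses an origin once per cycle, had the smallest rise of the 11, from 41.2 and 41.1 CPM to 51.0 and 46.8 CPM (0.25 ± 0.07, adjusted p = 0.00559). The Cdt1 call was lost without fetal replicate 1 (adjusted p = 0.0557). Geminin (Gmnn), the inhibitor of Cdt1, did not pass the test under TMM (log2 fold change -0.02 ± 0.06, adjusted p = 0.753; 0.22 with library totals, adjusted p = 0.00846).

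Promoter sequences of 6 members are shown because the letters of an E2F motif are what these promoters share more often than others do. They come from RefSeq on GRCm38.p6, each the stretch of 180 bases upstream of the annotated start, 5′ to 3′ on the gene's strand, with capitals marking TTTNNCGC on either strand (each N being C or G), overlapping matches run together. Cdc6, Orc1, Mcm5 and Mcm6 rose, and Pola1 and Gins3 did not pass the test under TMM.
Cdc6 (chr11:98907971-98908150, plus strand): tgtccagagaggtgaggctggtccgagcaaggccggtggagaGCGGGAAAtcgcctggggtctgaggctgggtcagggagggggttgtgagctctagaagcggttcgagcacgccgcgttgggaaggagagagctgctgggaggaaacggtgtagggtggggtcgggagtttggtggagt
Orc1 (chr4:108579274-108579453, plus strand): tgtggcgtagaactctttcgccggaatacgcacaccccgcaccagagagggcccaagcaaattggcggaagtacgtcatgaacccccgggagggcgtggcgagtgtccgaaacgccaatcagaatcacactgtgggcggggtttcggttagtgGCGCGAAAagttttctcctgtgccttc
Mcm5 (chr8:75109329-75109508, plus strand): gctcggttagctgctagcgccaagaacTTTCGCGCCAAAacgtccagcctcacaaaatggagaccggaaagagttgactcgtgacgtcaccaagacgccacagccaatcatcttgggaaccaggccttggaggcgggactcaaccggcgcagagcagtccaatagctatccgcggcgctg
Mcm6 (chr1:128359706-128359885, minus strand): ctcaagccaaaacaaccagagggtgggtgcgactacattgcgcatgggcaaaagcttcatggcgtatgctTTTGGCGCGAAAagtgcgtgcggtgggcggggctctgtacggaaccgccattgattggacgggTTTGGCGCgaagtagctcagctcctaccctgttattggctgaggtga
Pola1 (chrX:93632156-93632335, minus strand): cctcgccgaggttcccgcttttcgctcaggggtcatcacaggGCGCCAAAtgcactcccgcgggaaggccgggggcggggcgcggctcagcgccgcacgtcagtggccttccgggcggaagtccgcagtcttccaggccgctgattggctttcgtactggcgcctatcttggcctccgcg
Gins3 (chr8:95633379-95633558, plus strand): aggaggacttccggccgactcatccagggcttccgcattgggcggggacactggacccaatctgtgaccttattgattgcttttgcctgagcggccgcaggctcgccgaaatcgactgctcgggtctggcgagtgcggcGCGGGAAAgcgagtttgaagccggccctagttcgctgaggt

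In Cdc6 the motif begins at position -138 counted from the start of the transcript, in Orc1 at -27 and in Gins3 at -41. Mcm5 carries 2 overlapping matches that read inward from both strands at -153 and -149, and Mcm6 has the same arrangement at -110 and -106 plus another match at -47. Over the whole 300-base window (250 before to 50 after the start), 13 of the 34 members with an entry held the motif (38.2%). The share was 4.7% of tested genes with an entry (476 of 10131) and 2.26% of all 32851 promoters of that length. Of the 13 with the motif 9 rose, 1 fell and 3 were not called, with a median of 0.33, and of the 21 without it 15 rose, 3 fell and 3 were not called, with a median of 0.29. These are descriptions of letters in a window and say nothing of binding. Entries were lacking for Mcm4, Rfc2, Gins1, Pole, Ccne2, Gins4, Gins2 and Prim2.

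Of the 6 genes that turn the loaded ring into a running helicase, 3 rose, 1 fell and 2 did not pass the test, with a median of 0.27. With library totals 5 rose and 0 fell, where 48.8% of all genes rose and 20.9% fell. Gins4, a subunit of the GINS complex, stood at 20.9 and 21.6 CPM in adult and 35.1 and 33.4 CPM in fetal organoids (0.69 ± 0.08, adjusted p = 5.33e-06). Gins1, another subunit, stood at 14.6 and 11.3 CPM in adult and 18.3 and 19.1 CPM in fetal organoids (0.52 ± 0.13, adjusted p = 0.00296). The adult libraries lay further apart for Gins1 than the fetal ones, and its change ran from 0.34 to 0.72 with single libraries left out. Cdc45, which joins GINS and the ring, stood at 28.0 and 25.5 CPM in adult and 33.3 and 32.4 CPM in fetal organoids (0.29 ± 0.08, adjusted p = 0.00415).

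The other GINS subunits, Gins2 and Gins3, did not pass the test under TMM. Gins3 stood at 9.71 and 7.72 CPM in adult and 10.3 and 10.3 CPM in fetal organoids, and its change of 0.24 had a 95% interval from -0.10 to 0.57 (adjusted p = 0.194). Gins2 stood at 45.7 and 43.9 CPM against 43.4 and 42.7 CPM, nearly level (-0.06, interval -0.19 to 0.08, adjusted p = 0.432). With library totals both passed as higher, at 0.48 (adjusted p = 0.0132) and 0.19 (adjusted p = 0.0198). The median of all genes with totals was 0.25. Gins2 shares 2758 identical transcript bases with its overlapping neighbour Gse1, so its counts are uncertain. Mcm10, which helps the helicase start to unwind, stood at 76.1 and 82.2 CPM in adult and 67.7 and 70.9 CPM in fetal organoids, lower in both fetal libraries (-0.19 ± 0.06, adjusted p = 0.0115). That call was lost without adult replicate 2 (adjusted p = 0.0841) or fetal replicate 1 (adjusted p = 0.085), and with library totals the change was 0.06 (adjusted p = 0.415). On TPM, Mcm10 turned to a rise (0.32, adjusted p = 0.0385), and Gins2 and Gins3 passed as higher. The median of all genes on that scale was 0.36, so Mcm10 still lay below it.

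**Figure D3:**
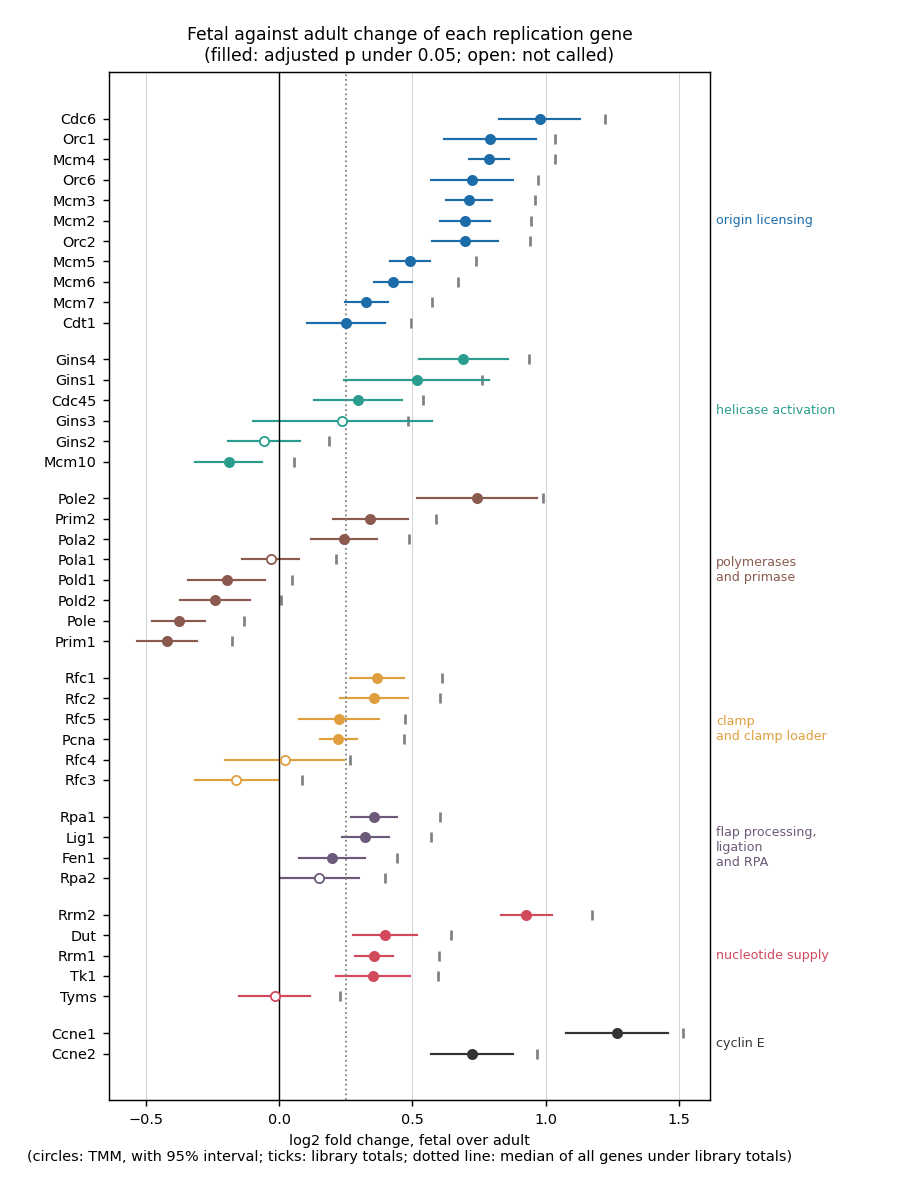
Log2 fold change of each member, fetal over adult (circles, TMM, with 95% interval; filled where the adjusted p is under 0.05), with the value under library totals as a tick and the all-gene median under library totals, 0.25, as a dotted line. Licensing and cyclin E genes lie between 0.25 and 1.27, and 5 of the 8 polymerase and primase genes lie below 0.

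The polymerases and primase held 4 of the 5 members that fell. Of 8 genes 3 rose, 4 fell and 1 did not pass the test under TMM, with a median of -0.12. Of all tested genes 33.9% rose and 32.7% fell, and the 8 genes were not tested as a set. With library totals 4 rose, 2 fell and 2 did not pass, where 48.8% of all genes rose and 20.9% fell. On TPM 5 rose and 0 fell, where 49.6% of all genes rose and 12.8% fell. Among these 8 genes under TMM, Pole2, Prim2 and Pola2 rose while the catalytic subunit of the same enzyme fell or did not pass.

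In polymerase epsilon, which copies the leading strand, the second subunit Pole2 stood at 12.4 and 12.7 CPM in adult and 21.6 and 20.5 CPM in fetal organoids (0.74 ± 0.10, adjusted p = 3.97e-05). The catalytic subunit Pole (ENSMUSG00000007080) went the other way, from 110.3 and 111 CPM to 84.7 and 85.3 CPM (-0.38 ± 0.05, adjusted p = 1.21e-05). Pole2 shares 249 transcript bases with Gm49384, whose counts came to 72.3% of those of Pole2, so its level is uncertain. In the primase, which lays down RNA primers, the large subunit Prim2 rose from 32.5 and 33.1 CPM to 42.1 and 41.0 CPM (0.34 ± 0.06, adjusted p = 0.000521). The catalytic small subunit Prim1 (ENSMUSG00000025395) fell from 83.5 and 83.8 CPM to 62.3 and 62.5 CPM (-0.42 ± 0.05, adjusted p = 1.31e-05). Prim1 and Pole were the members that fell under both TMM and library totals, by 0.18 (adjusted p = 0.01) and 0.13 (adjusted p = 0.0245) with totals. On TPM neither passed, with changes of 0.00 for Prim1 (adjusted p = 0.982) and 0.11 for Pole (adjusted p = 0.233). Both lay below the all-gene median of 0.36 on that scale.

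In polymerase alpha, the partner of primase, the accessory subunit Pola2 rose from 54.2 and 56.5 CPM to 65.9 and 65.0 CPM (0.24 ± 0.06, adjusted p = 0.00244). The catalytic Pola1 stood at 85.8 and 89.1 CPM in adult and 85.4 and 85.5 CPM in fetal organoids. Its change was -0.03 (interval -0.14 to 0.08, adjusted p = 0.581). Pola1 passed as higher with library totals (0.21, adjusted p = 0.00226), where the median of all genes was 0.25. In polymerase delta, which copies the lagging strand, both genes were lower under TMM. The catalytic Pold1 stood at 40.9 and 41.4 CPM in adult and 36.9 and 34.7 CPM in fetal organoids (-0.20 ± 0.07, adjusted p = 0.0187), a call lost without adult replicate 2 (adjusted p = 0.0509) or fetal replicate 2 (adjusted p = 0.0973). Pold2 stood at 53.2 and 51.7 CPM in adult and 44.6 and 44.1 CPM in fetal organoids (-0.24 ± 0.06, adjusted p = 0.00377). With library totals neither differed, at 0.05 (adjusted p = 0.55) for Pold1 and 0.00 (adjusted p = 0.951) for Pold2. On TPM the sign of both turned, with Pold1 passing as higher (0.47, adjusted p = 0.0164) and Pold2 not passing (0.15, adjusted p = 0.119). The median of all genes on that scale, 0.36, lay between them.

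The sliding clamp and its loader changed by small amounts: 4 of 6 rose and 2 did not pass, with a median of 0.22. Pcna, the ring that tethers polymerases to DNA, stood at 242 and 248 CPM in adult and 286 and 286 CPM in fetal organoids (0.22 ± 0.03, adjusted p = 5.69e-05). The clamp loader is built from Rfc1 to Rfc5. Its large subunit Rfc1 rose from 115 and 106 CPM to 145 and 141 CPM (0.37 ± 0.05, adjusted p = 1.57e-05), and Rfc2 from 48.1 and 48.6 CPM to 62.4 and 61.3 CPM (0.36 ± 0.06, adjusted p = 0.000154). Rfc5 stood at 82.0 and 69.2 CPM in adult and 89.1 and 87.9 CPM in fetal organoids (0.22 ± 0.07, adjusted p = 0.0123), a call lost without adult replicate 2 (0.10, adjusted p = 0.199). The fetal libraries of Rfc4 lay on either side of the adult ones, at 30.6 and 29.9 CPM in adult and 34.2 and 26.9 CPM in fetal organoids (0.02, interval -0.20 to 0.24, adjusted p = 0.875; with library totals 0.27, adjusted p = 0.0365). Rfc3, at 37.4 and 34.7 CPM against 31.2 and 33.4 CPM, did not pass (-0.16 ± 0.07, adjusted p = 0.064), and passed as lower without adult replicate 2 (adjusted p = 0.0382) or fetal replicate 2 (adjusted p = 0.0384). On TPM Rfc3 turned to a rise (0.27, adjusted p = 0.0277), below the all-gene median of 0.36 on that scale.

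Of the 4 genes that protect single strands and finish the lagging strand 3 rose, with a median of 0.26 over the 4. Rpa1, the large subunit of the single-strand binding protein, stood at 110.5 and 111 CPM in adult and 142 and 142 CPM in fetal organoids (0.36 ± 0.04, adjusted p = 5.71e-06). Lig1, the ligase that joins Okazaki fragments, rose from 117 and 121 CPM to 147 and 151 CPM (0.32 ± 0.04, adjusted p = 1.57e-05). Both changes were larger than the spread between libraries. Fen1, the nuclease that trims their flaps, stood at 63.0 and 64.7 CPM in adult and 71.4 and 75.1 CPM in fetal organoids (0.20 ± 0.06, adjusted p = 0.00778), and its call was lost without adult replicate 1 (adjusted p = 0.0566) or fetal replicate 2 (adjusted p = 0.0885). Rpa2, the partner of Rpa1, stood at 37.8 and 38.6 CPM against 44.0 and 40.7 CPM (0.15 ± 0.07, adjusted p = 0.0678), and passed with library totals (0.40, adjusted p = 0.00022) and without fetal replicate 2 (adjusted p = 0.0494).

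In nucleotide supply the largest rise was that of Rrm2, a subunit of ribonucleotide reductase, the enzyme that makes deoxyribonucleotides from ribonucleotides. Of 5 genes 4 rose and 1 did not pass, with a median of 0.36. Rrm2 (ENSMUSG00000020649), the small subunit of the reductase, stood at 142 and 129 CPM in adult and 263 and 255 CPM in fetal organoids (0.93 ± 0.04, adjusted p = 1.61e-09). The large subunit Rrm1 rose less, from 292 and 287 CPM to 363 and 378 CPM (0.36 ± 0.03, adjusted p = 1.05e-06). Dut, which breaks down dUTP, rose from 63.0 and 59.2 CPM to 81.0 and 80.1 CPM (0.40 ± 0.06), and Tk1, the thymidine kinase of S phase, by 0.35 ± 0.06. Tyms, thymidylate synthase, stood at 68.7 and 62.6 CPM in adult and 63.7 and 66.3 CPM in fetal organoids, overlapping values (-0.02, interval -0.15 to 0.12, adjusted p = 0.816; with library totals 0.23, adjusted p = 0.00494).

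Cyclin E gave the largest change of the 42. Ccne1 (ENSMUSG00000002068) stood at 22.0 and 19.5 CPM in adult and 53.5 and 46.9 CPM in fetal organoids, 2.41-fold higher (log2 fold change 1.27 ± 0.09, interval 1.08 to 1.46, adjusted p = 6.75e-08). It was the member at or above 2-fold, and stood at percentile 88.2 of all tested genes by log2 fold change. Ccne2, the second E-type cyclin, rose from 27.8 and 25.3 CPM to 43.9 and 44.0 CPM (0.72 ± 0.07, adjusted p = 1.61e-06). With single libraries left out the change of Ccne1 ran from 1.17 to 1.36.

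Levels of different genes can be set side by side only per length, in TPM. Pcna was the most abundant member in both groups, at a mean of 290.4 TPM in adult and 458 TPM in fetal organoids, followed by Rrm1 at 149 and 261 TPM. Rrm2 stood at 102 TPM in adult, and at 259 TPM in fetal organoids it lay beside Rrm1, whose 2 fetal libraries read 245 and 277 TPM. Gins3 and Orc1 were the least abundant, at 4.38 and 7.73 TPM in adult and 7.03 and 17.4 TPM in fetal organoids.

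Partner genes were compared by their ratios within a library, which do not depend on scaling between libraries. In TPM the ratios do depend on the length taken for each gene, which differed between libraries. With 2 libraries against 2, the exact permutation test cannot go below p = 0.333, so the ratios are given as values with their overlap. Rrm2 over Rrm1 in TPM stood at 0.656 and 0.713 in adult and 1.09 and 0.906 in fetal organoids. Pole2 over Pole stood at 0.404 and 0.375 against 0.776 and 0.762, and Prim2 over Prim1 at 0.336 and 0.330 against 0.566 and 0.534. Pola2 over Pola1 stood at 1.47 and 1.90 against 2.00 and 2.06, and in CPM at 0.632 and 0.634 against 0.771 and 0.760. In these 4 pairs both fetal libraries lay above both adult ones. Pold2 over Pold1 went the other way in TPM, at 2.32 and 2.38 in adult and 1.78 and 1.93 in fetal organoids, and the groups overlapped for this pair in CPM. The 6 ring subunits summed to 466 and 442 TPM in adult and 871 and 828 TPM in fetal organoids. Mcm7 gave 24.3% and 24.3% of that sum in adult and 21.7% and 19.8% in fetal organoids, Mcm3 13.7% and 12.5% against 16.6% and 15.7%, and Mcm5 19.1% and 19.9% against 18.1% and 19.1%, overlapping. The most abundant ring subunit exceeded the least abundant one 2.78-fold and 2.83-fold in adult and 2.43-fold and 2.28-fold in fetal organoids. The ring sum over the 3 catalytic polymerase genes Pola1, Pold1 and Pole stood at 6.97 and 6.86 in adult and 10.4 and 10.8 in fetal organoids, so licensing transcripts were higher relative to polymerase transcripts.

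**Figure D4:**
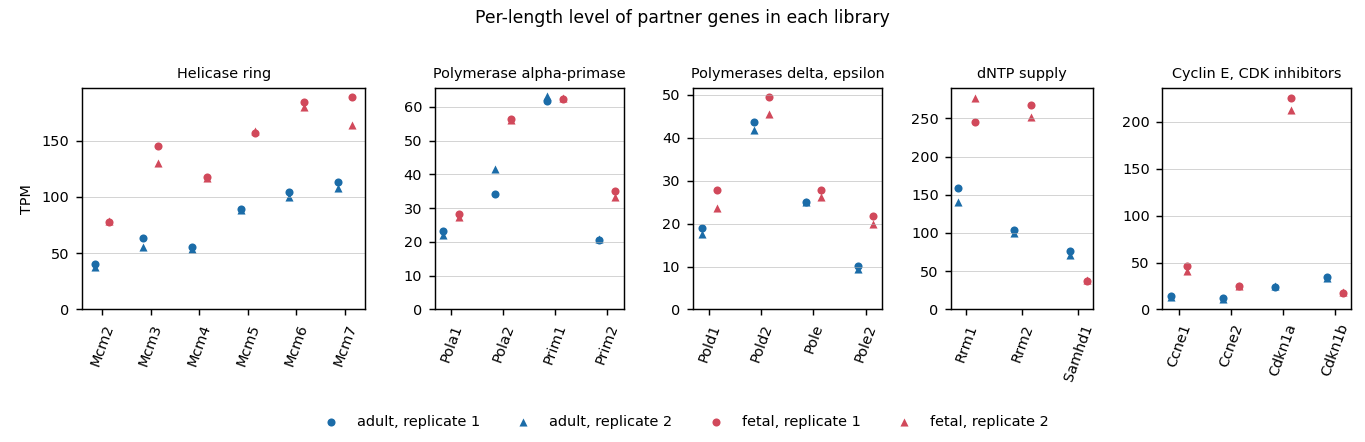
TPM of partner genes in each library (y axis from 0; circles, replicate 1; triangles, replicate 2; blue, adult; red, fetal). Rrm2 rises to the level of Rrm1 in fetal organoids, Prim1 stays near 62 TPM in all 4 libraries, and Cdkn1a and Cdkn1b move in opposite directions.

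The wider replication and S-phase pathway was read from 72 further genes in 5 lists, 70 of which were matched and tested. Of these 30 rose (42.9%), 19 fell (27.1%) and 21 did not pass, with a median of 0.11. Library totals gave 49 rises (70%) and 12 falls (17.1%), where 48.8% of all genes rose and 20.9% fell. With single libraries left out, 22 to 27 rose and 16 to 18 fell. Among 29 other genes of the replication machinery, 14 rose and 5 fell. Without adult replicate 1, 10 of these rose and 3 fell, the falls of Dtl (adjusted p = 0.0968) and Orc5 (adjusted p = 0.215) being lost. Recql4, a helicase that acts at origin firing, rose from 13.3 to 22.0 CPM on average (0.72 ± 0.10), Pold4, a small subunit of polymerase delta, by 0.68 ± 0.17, and Tipin, of the fork protection complex, from 48.7 to 71.3 CPM. Dna2, a nuclease of flap processing, fell from 77.9 to 56.7 CPM (-0.46 ± 0.05), and Ticrr, which brings Cdc45 to origins, from 72.9 to 55.8 CPM. Pole4 fell by 0.40, a call that library totals did not give (adjusted p = 0.172). On TPM none of these 3 falls passed the test, and the sign for Ticrr turned (0.06, adjusted p = 0.605). The median of all genes on that scale was 0.36.

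Among 9 other genes of nucleotide supply, 4 rose and 4 fell, where 33.9% of all genes rose and 32.7% fell. Samhd1, the hydrolase that breaks down deoxyribonucleotides, stood at 112 and 109 CPM in adult and 40.1 and 41.6 CPM in fetal organoids, 2.71-fold lower (-1.44 ± 0.05, adjusted p = 1.86e-10), and it fell under totals and TPM too. Samhd1 over Rrm2 in TPM stood at 0.731 and 0.710 in adult and 0.138 and 0.155 in fetal organoids. Rrm2b, the p53-responsive form of the reductase's small subunit, rose from 7.49 to 15.8 CPM (1.08 ± 0.13), Nme1, a nucleoside diphosphate kinase, by 0.42 ± 0.05 and Dctd, a deoxycytidylate deaminase, by 0.41 ± 0.07. Shmt1 and Cmpk1, of folate and of nucleotide metabolism, fell by 0.54 and 0.39 under TMM and did not pass on TPM. There the sign for Cmpk1 turned (0.03), below the all-gene median of 0.36.

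Some regulators changed more than any member. Of the 70 further pathway genes, 3 were at least 2-fold higher and 6 at least 2-fold lower under TMM, where 25.9% of all genes changed at least 2-fold. Of 14 E2F and pocket protein genes, 5 rose and 6 fell, where 33.9% of all genes rose and 32.7% fell. Without adult replicate 1, 3 rose and 6 fell, the rises of Tfdp1 (adjusted p = 0.0748) and E2f7 (adjusted p = 0.113) being lost. Mybl2, a Myb factor of the cell cycle, rose from 42.1 and 39.0 CPM to 87.9 and 87.2 CPM (1.11 ± 0.06, adjusted p = 5.6e-09), E2f4 from 60.0 to 87.6 CPM and E2f6 by 0.31 ± 0.08. E2f2, an activating E2F, fell from 40.9 and 41.1 CPM to 12.9 and 13.9 CPM (-1.61 ± 0.08, adjusted p = 2.82e-09), and Tfdp2, a dimer partner of E2F, by 1.18. Rb1, the retinoblastoma protein that holds E2F in check, fell from 47.8 and 47.1 CPM to 21.3 and 21.4 CPM (-1.15 ± 0.07, adjusted p = 1.2e-08), and its change on TPM was -0.33 (adjusted p = 0.0634). E2f1 and E2f3, the other activating E2Fs, did not pass under TMM, at 0.17 and 0.08 (adjusted p = 0.2 and 0.246); they were chosen after their values were seen.

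Of 8 genes of S-phase kinase control, 2 rose and 3 fell; the count of rises was 1 without adult replicate 1 or fetal replicate 2, and 3 without fetal replicate 1. Cdkn1a, the p21 inhibitor of cyclin-dependent kinases, stood at 36.2 and 38.4 CPM in adult and 255 and 249 CPM in fetal organoids, 6.76-fold higher (2.76 ± 0.05, adjusted p = 1.08e-13). Cdkn1b, the p27 inhibitor, went the other way, from 84.4 and 76.0 CPM to 33.7 and 34.1 CPM (-1.24 ± 0.07, adjusted p = 6.13e-09). So the inhibitors of cyclin E kinase moved in opposite directions beside the rise of Ccne1. Cdkn1b over Ccne1 in TPM stood at 2.47 and 2.66 in adult and 0.382 and 0.460 in fetal organoids, and Cdkn1a over Pcna at 0.0840 and 0.0857 against 0.491 and 0.466. Wee1, a kinase that restrains Cdk activity, fell by 0.74. Skp2, the ubiquitin ligase subunit that targets p27, rose by 0.21 ± 0.06, a call lost without adult replicate 1 (adjusted p = 0.0535) or fetal replicate 2 (adjusted p = 0.0515). Ccna2, cyclin A of S phase, fell by 0.10 under TMM (adjusted p = 0.0371) but rose by 0.15 with library totals (adjusted p = 0.00292), and the fall was lost without adult replicate 2 or fetal replicate 1 (adjusted p = 0.163 and 0.295).

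**Figure D5:**
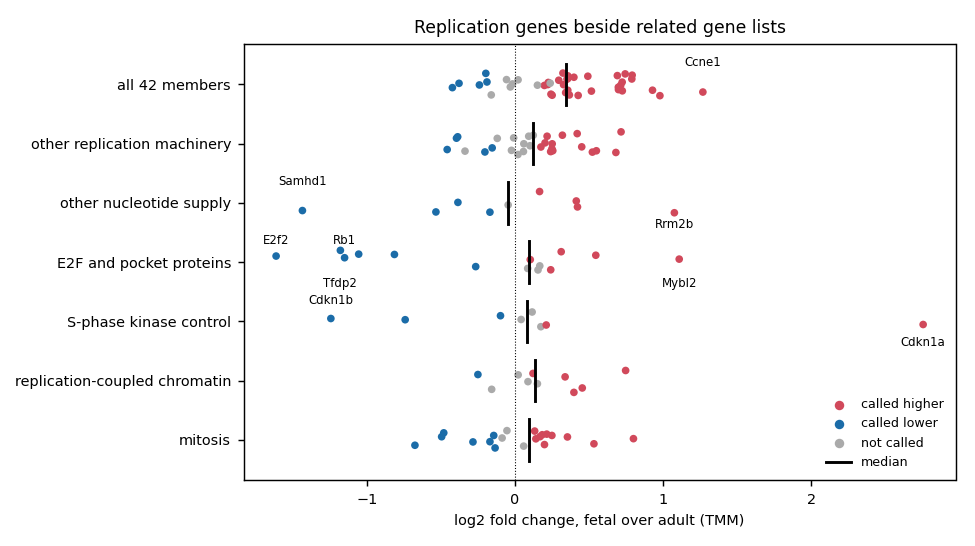
Log2 fold change under TMM of the 42 members and of the genes in 6 related lists (x axis; red, called higher; blue, called lower; grey, not called; black bar, the list's median; vertical scatter within a list has no meaning). The members' median is 0.35 and the other lists' medians run from -0.05 to 0.14.

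Of 10 genes that rebuild chromatin behind the fork, 5 rose and 1 fell, and without fetal replicate 2 the count of falls was 2. Uhrf1, which guides maintenance of DNA methylation, rose from 147 and 141 CPM to 242 and 241 CPM (0.75 ± 0.04, adjusted p = 1.92e-09). Chaf1a, a subunit of the histone chaperone at the fork, rose by 0.45 ± 0.05 and Nasp, a histone chaperone, by 0.40 ± 0.04. Pclaf, a Pcna-binding protein, fell by 0.25 under TMM and was level with library totals (-0.01, adjusted p = 0.92).

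Mitosis genes, which act later in the same cycle, had a median nearer that of all genes. Of 20, 10 rose (50%), 7 fell (35%) and 3 did not pass, with a median of 0.09. Of all tested genes 33.9% rose and 32.7% fell. With library totals 15 rose (75%) and 3 fell (15%), against 48.8% and 20.9% of all genes. Without fetal replicate 2, 6 rose and 7 fell, the rises of Aurka, Bub1b, Cdk1 and Kif20a being lost (adjusted p = 0.0805, 0.0763, 0.168 and 0.143). Kif23, a kinesin of cell division, rose from 113 to 196 CPM, Cdc20, an activator of the anaphase-promoting complex, by 0.53 and Ccnb1, cyclin B, by 0.35. Kif11, a spindle kinesin, fell from 214 to 134 CPM, Mki67, the Ki-67 marker of cycling cells, from 1271 and 1232 CPM to 865 and 910 CPM (-0.50 ± 0.04, adjusted p = 1.33e-07) and Nusap1, a spindle protein, by 0.48. On TPM Kif11 passed as lower and Mki67 and Nusap1 did not pass. Summed over the lists, members over mitosis genes in TPM stood at 1.57 and 1.56 in adult and 1.90 and 1.88 in fetal organoids. The 42 members took 0.365% and 0.361% of non-mitochondrial counts in adult and 0.498% and 0.492% in fetal organoids.

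Sequence copies limit some of these values. For 5 members a processed pseudogene of at least 95% identity was counted separately, with counts from 0.07% (Rrm2) to 2.75% (Pcna) of those of the gene. For 9 members (Ccne2, Fen1, Gins2, Lig1, Mcm7, Orc2, Pole2, Rfc2 and Rfc5) at least 200 transcript bases are shared with an overlapping gene, and with the use of strand in counting unstated, their levels are uncertain. Tyms shares stretches of at least 200 bases at 95% identity or more with transcripts of several other genes.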

How the data were processed

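Poly-A RNA of 4 libraries was sequenced with a directional kit, per the labels' protocols. One deposited table gives unnormalized expected counts for each Ensembl identifier, as estimated by RSEM, per the file headers. The other deposited table gives TPM, a level per length with each library set to the same sum. The length taken for a gene was not the same in each library. In adult, Pola2 over Pola1 read 0.632 and 0.634 in CPM but 1.47 and 1.90 in TPM. Changes and ratios in TPM therefore also carry differences in these lengths. The submitters' processing notes name RSEM 1.3.3, STAR 2.7.3a, Trim Galore and FastQC, and the builds mm10 and GRCm39; annotation and strand setting are not given in the sources used here. Symbols came from GENCODE M21, which named 52083 of 55416 identifiers. Library totals were 12449639 and 10862119 counts in adult and 13061533 and 12184226 in fetal organoids.

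Expected counts were rounded and tested over all genes with edgeR 4.0.16 in R 4.3.3 (TMM, filterByExpr, quasi-likelihood F-test, Benjamini-Hochberg threshold 0.05). CPM are TMM-scaled (factors 0.918 and 0.919 in adult, 1.10 and 1.08 in fetal), and fold changes carry standard errors. TPM were tested with limma 3.58.1 on log2(TPM + 1) in genes at 1 TPM or more in 2 libraries; a fold change on that scale understates the change of low genes. The steps were also run on simulated counts in which few genes changed. Those runs do not test the choice of scaling or the deposited TPM. Replicates differed beyond sampling noise (chi-square per degree of freedom 3.30 in adult, 2.81 in fetal), and all 4 libraries were kept. This does not show that they came from separate animals or cultures. The common coefficient of variation beyond counting noise was 0.033. Copies were sought with blastn 2.17.0 at 95% identity over 200 bases. Alternatives were library totals with and without mitochondrial genes, DESeq2 1.42.0 size factors and Wald test, upper-quartile scaling, other filters, TPM pseudocounts, a replicate block and leaving out each library.

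The members and lists were chosen with earlier results of these data known. Values in each library are given for the 3 largest changes of each role, for members that fell and for members whose call depends on scaling; from each other list up to 3 rises and 3 falls at 5 CPM or more are named. Lin54 and Chtf8 were not matched.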

Additional observations from a re-analysis of the deposited data

How the results depend on the processing

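The calls of all 42 members were the same with DESeq2 size factors, upper-quartile scaling, no filter and a stricter filter on low counts. DESeq2's Wald test gave 2 members lower, library totals gave 2, totals without mitochondrial genes 3, and limma 0 on log2(TPM + 1), on log2(TPM + 0.1) and without a filter. The members' median log2 fold change moved to 0.59 with totals, 0.42 with totals without mitochondrial genes, and 0.70, 0.72 and 0.70 with limma. Over all genes the count of falls was 2976 with totals and 1796, 1752 and 1728 with limma. With single libraries left out, 29 to 30 members rose and 4 to 5 fell, the median ran from 0.34 to 0.35, and over all genes 4447 to 4583 rose and 4180 to 4463 fell.

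Some members changed direction. With totals Gins2 was at 0.19, Mcm10 at 0.0555, Pola1 at 0.21, Pold1 at 0.0482, Pold2 at 0.0047, Rfc3 at 0.0848 and Tyms at 0.23. With totals without mitochondrial genes Gins2 was at 0.0207, Pola1 at 0.0463 and Tyms at 0.0612. With limma on log2(TPM + 1), log2(TPM + 0.1) and without a filter, Gins2 was at 0.59, 0.60 and 0.59, Mcm10 at 0.32, 0.33 and 0.32, Pola1 at 0.29, 0.30 and 0.29, Pold1 at 0.47, 0.49 and 0.47, Pold2 at 0.15, 0.15 and 0.15, Pole at 0.11, 0.11 and 0.11, Rfc3 at 0.27, 0.28 and 0.27, and Tyms at 0.43, 0.44 and 0.43. With single libraries left out, Tyms ran from -0.0879 (without adult replicate 2) to 0.0481 (without adult replicate 1), and Rfc4 from -0.17 (without fetal replicate 1) to 0.168 (without fetal replicate 2). Count scalings shift all genes together. The median of all genes was 0.01 under TMM, 0.25 with totals and 0.0794 with totals without mitochondrial genes. With limma on log2(TPM + 1), log2(TPM + 0.1) and without a filter it was 0.36, 0.40 and 0.13. Under TMM and totals alike 33 members lay above the median of all genes, and 36 on log2(TPM + 1). The cause of the other changes of direction was not tested.

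With the replicate number as a block, 30 members rose and 5 fell, as without it, with a median of 0.35, and over all genes 4765 rose and 4584 fell. The labels do not say whether same-numbered libraries were paired. Their deviations from the group means correlated at -0.014 over genes, so no shared deviation was seen, but this value cannot settle how they were handled. At these depths the members' 95% intervals did not reach 1.5-fold for any member that was not called.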

Other observations

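Promoter letters of the mitosis genes differed from those of the replication genes. The letters TTTGAA, known as the cell cycle homology region of genes used late in the cycle, were searched on both strands of the same RefSeq windows. They were found in 13 of 17 mitosis genes with an entry (76.5%) and in 5 of the 34 replication genes (14.7%), beside 14.7% of tested genes and 17.9% of all promoters. CCAAT, the box bound by NF-Y, was found in 15 of the 17 mitosis genes (88.2%) and 21 of the 34 replication genes (61.8%), beside 43.4% of tested genes. The E2F motif described for the replication genes was found in 1 of the 17 mitosis genes (5.88%) and in 19 of 57 other pathway genes (33.3%). These are counts of letters in a window, with no test.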
